A study of Mus musculus with 21 samples.

Results

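H3K4me3 was compared between crosslinked and native C2C12 cells, a mouse myoblast line, on the second day of differentiation. Of the 21 libraries of the series, 4 entered this comparison, 1 for each preparation. The cells of these 4 libraries were grown to confluency, moved to medium with 2% horse serum and collected 48 h later. Fresh crosslinked cells were treated for 5 min at room temperature with 0.1% formaldehyde, quenched with 12.5 mM glycine and assayed without freezing. Frozen crosslinked cells received the same fixation and were then frozen in FBS with 10% DMSO. Fresh native and frozen native cells were handled in the same 2 ways without formaldehyde. Cycling cells are set beside this comparison further on, with H3K4me3 and PSME3 libraries. They were undifferentiated, grown in medium with 20% serum, and frozen with 10% DMSO without crosslinking. Each library was a CUT&RUN profile, in which a nuclease tethered to the antibody cuts out the DNA around the mark in permeabilized cells. The authors called peaks in each library separately with MACS2. With 1 library for each day 2 preparation there is no replicate error within a preparation. The lists hold no read numbers, so that the depth is unknown. C2C12 is a subclone of a single myoblast line, and day 2 cultures can hold both fused and unfused cells.

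Peaks of the 4 lists that shared at least 1 bp were merged into 26145 regions. A region found in both crosslinked lists and in neither native list was called crosslinked-only, and the reverse was called native-only. By this rule 984 regions were crosslinked-only (3.76% of all regions) and 16 were native-only (0.0612%), while 12250 were found in all 4 lists (46.9%).

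H3K4me3 is a histone mark laid down at the promoters of active genes, where its domain usually spans the nucleosomes on either side of the transcription start and extends farthest into the first part of the gene. In muscle precursors it marks the genes of the myogenic regulators and, once differentiation begins, genes of the contractile apparatus. Formaldehyde links proteins to DNA and to each other, whereas native chromatin carries no such added links.

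The sequences below show starts from each set, to let their CpG content be seen. They are RefSeq promoter windows of GRCm38.p6, the build that corresponds to the mm10 coordinates of the peaks, and each runs 5′ to 3′ on the gene's strand from 250 bases before the start to 50 after it, with CpG dinucleotides in capitals. The first 4 overlapped the highest-ranked crosslinked-only regions at protein-coding genes that reached such a window.
Extl1, chr4:134372498-134372797, minus strand: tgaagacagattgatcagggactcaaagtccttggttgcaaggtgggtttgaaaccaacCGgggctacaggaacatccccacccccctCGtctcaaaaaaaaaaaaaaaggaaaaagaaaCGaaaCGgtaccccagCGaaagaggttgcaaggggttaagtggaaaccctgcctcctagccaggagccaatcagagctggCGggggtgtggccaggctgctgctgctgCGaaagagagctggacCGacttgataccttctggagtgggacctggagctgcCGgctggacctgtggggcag
Kbtbd7, chr14:79426261-79426560, plus strand: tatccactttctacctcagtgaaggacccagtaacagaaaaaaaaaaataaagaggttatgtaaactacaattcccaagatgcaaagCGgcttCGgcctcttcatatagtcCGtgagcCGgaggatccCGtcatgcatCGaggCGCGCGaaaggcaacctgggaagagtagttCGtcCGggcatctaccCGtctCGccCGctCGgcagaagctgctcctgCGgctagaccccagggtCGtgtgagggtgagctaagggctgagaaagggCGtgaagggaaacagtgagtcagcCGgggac
A630095N17Rik, chr1:75232044-75232343, minus strand: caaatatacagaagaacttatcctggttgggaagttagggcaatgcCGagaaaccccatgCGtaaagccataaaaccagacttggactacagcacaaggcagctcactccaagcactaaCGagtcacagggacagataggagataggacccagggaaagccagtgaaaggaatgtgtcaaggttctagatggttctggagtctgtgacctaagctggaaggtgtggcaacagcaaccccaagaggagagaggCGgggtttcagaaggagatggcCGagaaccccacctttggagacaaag
Amdhd1, chr10:93539984-93540283, minus strand: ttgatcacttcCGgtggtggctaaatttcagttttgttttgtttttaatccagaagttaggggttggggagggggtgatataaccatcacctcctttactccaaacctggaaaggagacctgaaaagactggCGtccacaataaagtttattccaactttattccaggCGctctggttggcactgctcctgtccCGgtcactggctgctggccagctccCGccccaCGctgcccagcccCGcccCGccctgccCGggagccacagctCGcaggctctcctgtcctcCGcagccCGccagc
Tagap1 and Ripk3 were the only genes whose windows overlapped a native-only region. In both, the region reached only bases after the start.
Tagap1, chr17:6961107-6961406, minus strand: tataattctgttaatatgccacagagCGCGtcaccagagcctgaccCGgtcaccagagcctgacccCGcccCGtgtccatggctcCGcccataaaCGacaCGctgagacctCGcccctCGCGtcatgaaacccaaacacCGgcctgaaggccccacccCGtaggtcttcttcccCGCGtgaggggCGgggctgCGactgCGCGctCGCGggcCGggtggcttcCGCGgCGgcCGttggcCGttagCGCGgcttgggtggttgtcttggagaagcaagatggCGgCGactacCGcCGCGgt
Ripk3, chr14:55788808-55789107, minus strand: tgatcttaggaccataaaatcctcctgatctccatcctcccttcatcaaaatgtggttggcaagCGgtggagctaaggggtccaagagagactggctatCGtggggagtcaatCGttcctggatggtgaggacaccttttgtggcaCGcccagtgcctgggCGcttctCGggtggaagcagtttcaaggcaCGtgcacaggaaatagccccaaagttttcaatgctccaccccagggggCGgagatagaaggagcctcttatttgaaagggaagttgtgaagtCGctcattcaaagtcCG
Myog, a myogenic transcription factor, and Acta1, skeletal muscle actin, had peaks in all 4 lists.
Myog, chr1:134289754-134290053, plus strand: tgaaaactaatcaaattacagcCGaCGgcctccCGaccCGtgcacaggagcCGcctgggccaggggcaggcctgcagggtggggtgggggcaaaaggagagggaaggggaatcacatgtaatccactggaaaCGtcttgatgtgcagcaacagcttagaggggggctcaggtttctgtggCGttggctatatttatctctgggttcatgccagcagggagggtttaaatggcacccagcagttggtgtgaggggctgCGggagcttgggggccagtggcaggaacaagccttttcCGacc
Acta1, chr8:123894726-123895025, minus strand: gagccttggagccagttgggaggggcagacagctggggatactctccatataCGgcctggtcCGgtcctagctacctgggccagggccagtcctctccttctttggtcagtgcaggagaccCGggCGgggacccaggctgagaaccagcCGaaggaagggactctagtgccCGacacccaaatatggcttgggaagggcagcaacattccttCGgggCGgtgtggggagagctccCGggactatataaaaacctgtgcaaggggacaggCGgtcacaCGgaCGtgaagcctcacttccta
These windows held 9 CpG for Extl1, 19 for Kbtbd7, 5 for A630095N17Rik, 12 for Amdhd1, 34 for Tagap1, 10 for Ripk3, 9 for Myog and 12 for Acta1. Over the whole table, the 47 windows that overlapped a crosslinked-only region and no region of all lists held a median of 9 CpG, with a GC content of 55.0%. The 12095 windows under regions of all lists held a median of 22 CpG and a GC content of 62.0%, and the 20039 windows under no region of any list held 4 and 48.3%. The windows at crosslinked-only regions thus lay between these sets in CpG number, as did those at frozen-only regions, with 11.5, and at regions missing from the fresh native list alone, with 13. The letters TATAAA, searched on both strands, occurred in 8.51% of the windows at crosslinked-only regions, 6.25% of those at regions of all lists, 18.2% of those under no region and 13.6% of all 32851 windows. CCAAT, searched likewise, occurred in 34.0%, 37.9%, 37.3% and 37.4% of these sets in the same order.

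The labelled cell type was checked at transcription starts. Of 10 myoblast and muscle genes with a start in the table, 9 had a peak within 1 kb in each of the 4 lists, and Cav3 had none. Of 11 genes that mark neurons, blood, liver, fat, cartilage or endothelium, none had a peak in 3 of the lists, and Syt1 had 1 in frozen native cells. Longer lists of such markers did hold marked genes, among them Map2, Tubb3, Pparg, Runx1 and Flt1, and their counts are given with the gene lists.

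Crosslinked cells gave longer lists. The lists held 20203 peaks in fresh crosslinked, 20245 in frozen crosslinked, 14372 in fresh native and 15431 in frozen native cells. Both crosslinked lists were longer than both native lists, with a mean of 20224 ± 29.7 (SD, n = 2) against 14901.5 ± 749 (SD, n = 2). A two-sided exact permutation test of the libraries gave p = 0.333, and no smaller p is possible with 2 libraries on each side, so this design cannot pass 0.05. The difference of the means was 5322.5 peaks, and 2225.5 among peaks with q of at most 0.01. Median peak width was 1348 bp in fresh crosslinked, 1456 bp in frozen crosslinked, 1483 bp in fresh native and 1844 bp in frozen native cells (exact permutation test, p = 0.333). The crosslinked peaks were narrower at the median in the lists as deposited, by a difference of the means of -261.5 bp. The direction turned with q of at most 0.01, to 53.5 bp, and with the same number of peaks from each list, to 257 bp. The peaks covered 32.5, 35.1, 23.6 and 31.7 Mb in the same order. Peaks of at least 5 kb made up 2.85% and 3.41% of the crosslinked lists and 1.76% and 3.93% of the native lists, so the groups overlapped. Peaks with q over 0.01 were 24.9% and 23.7% of the crosslinked lists, against 19% and 5.96% of the native lists.

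Native peaks were mostly a subset of the crosslinked ones. Between 89.2% and 94.6% of the peaks of a native list overlapped a peak of a crosslinked list, while 61.6% to 73.8% of the peaks of a crosslinked list overlapped one of a native list. The crosslinked lists shared 78.5% and 75.6% of their peaks with each other. In the plot of list membership, a further 1783 regions were missing from the fresh native list alone, against 66 missing from the frozen native list alone.

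**Figure D1:**
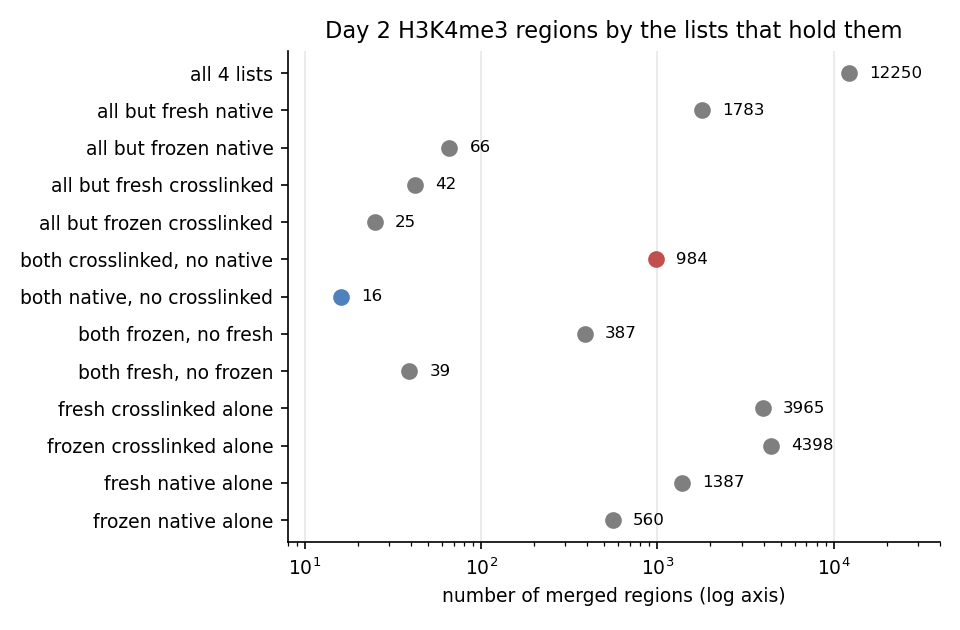
Number of merged H3K4me3 regions (horizontal log axis) by the lists that hold them, 1 point for each kind of membership. The 984 regions of both crosslinked lists and no native list stand against 16 of the reverse kind, and 12250 regions were in all 4 lists.

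The size of the crosslinked-only set depended on list length. When the same number of peaks, those with the smallest q, was taken from each list, 190 regions were crosslinked-only and 76 were native-only. With q of at most 0.01 the numbers were 377 and 10. Leaving out a library loosens the rule, since a region then has to be in, or missing from, 1 list fewer. Without the frozen native library the crosslinked-only set grew to 2806 regions, without fresh crosslinked to 5447 and without frozen crosslinked to 5169, whereas without fresh native it was 1052. The native-only set grew to 1421 regions without frozen native, 577 without fresh native, 58 without frozen crosslinked and 42 without fresh crosslinked. By handling, 387 regions were frozen-only (1.48%) and 39 were fresh-only (0.149%), each in both lists of 1 handling and neither of the other. The splits by fixation and by handling were not compared at equal list lengths.

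Crosslinked-only regions were short and weak within their own lists. Their peaks had a median width of 334.5 bp in fresh and 445.5 bp in frozen crosslinked cells, against 2029 and 2239 bp for the peaks of regions found in all 4 lists. No peak reached 5 kb, and the widest measured 3184 bp. The authors' fold enrichment had a median of 2.72 in fresh and 2.84 in frozen crosslinked cells, and -log10 q lay at a median percentile of 21.1 and 22.4 of its list, with maxima of 48.6 and 47.4. Every crosslinked-only peak thus ranked below the median of its list. The native-only peaks measured 212 bp in fresh and 425.5 bp in frozen native cells at the median, at percentiles of 11.5 and 7.04. Presence in a list rests on the same q-values, so these ranks describe the sets and support nothing about them.

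Most crosslinked-only regions lay away from gene boundaries. Within 1 kb of a boundary, start or end, were 198 of the 984 (20.1%, exact 95% Clopper-Pearson interval 17.7 to 22.8%), against 82.7% of regions in all lists and 47.8% of all regions. Inside genes but farther from a boundary lay 57.1%, and outside genes 22.8%. Only 33 (3.35%) covered a transcription start, compared with 70.0% of regions in all lists. Native-only regions lay near a boundary in 10 of 16 cases (62.5%, interval 35.4 to 84.8%), and 0 of the 16 covered a start. Chromosomes with tabulated starts held 968 crosslinked-only regions, 11904 regions of all lists and 15 native-only regions. The remaining regions could not cover a start but were counted in these shares. Other sets missing from some lists also lay mostly away from boundaries. Near a boundary were 29.2% of the regions missing from the fresh native list alone, 26.9% of frozen-only and 30.8% of fresh-only regions, and inside genes 47.0%, 50.6% and 35.9%. The differences of these sets from the crosslinked-only regions were not tested. The intervals cover counting error only, and regions are not replicates.

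**Figure D2:**
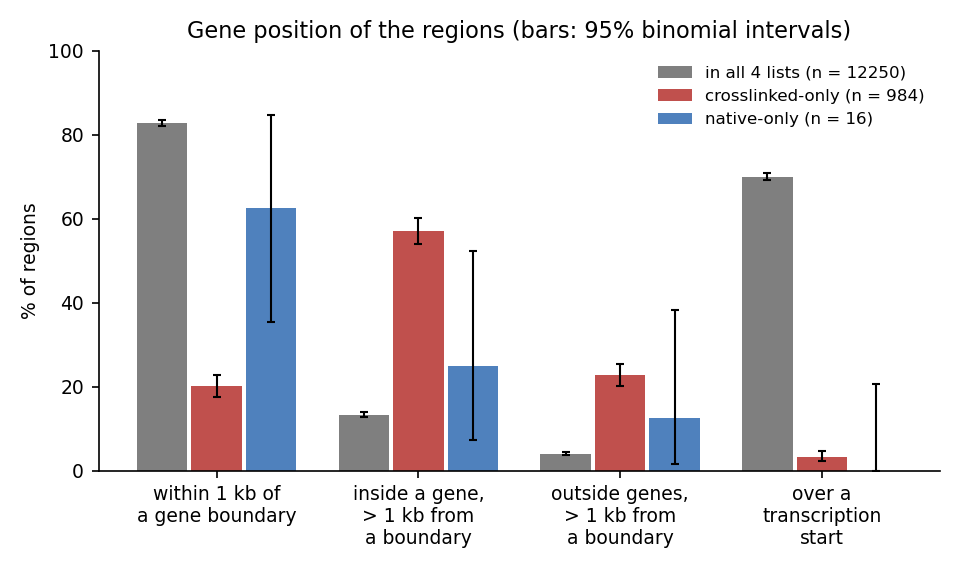
Percent of regions at each gene position (vertical axis) for regions in all 4 lists, crosslinked-only regions and native-only regions, with bars for exact 95% binomial intervals. Crosslinked-only regions were most often inside genes (57.1%), while 82.7% of the regions in all lists lay within 1 kb of a boundary.

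Measured from the centre of a region to the nearest of the tabulated starts, the median distance was 11414.5 bp for crosslinked-only regions and 625 bp for regions in all lists. Of the 968 crosslinked-only regions on a chromosome with tabulated starts, 24.8% lay 1 to 10 kb downstream of the nearest start and 15.3% lay 1 to 10 kb upstream. The downstream share was 12% for regions in all lists and 15.2% for the regions missing from the fresh native list alone. Crosslinked-only regions also lay near marked chromatin, with 324 (32.9%) within 5 kb of a region of all lists and a median gap of 9276 bp. The median gap was 20115 bp for the regions missing from the fresh native list alone and 61145.5 bp for native-only regions. Of 444 intragenic crosslinked-only regions whose host gene had a promoter window, 368 (82.9%) lay in a gene with a region of all lists over a start. Of all protein-coding genes with a window, 50.7% had such a region, and the host genes of the regions missing from the fresh native list alone had it in 73.9% of cases. Gene length was not matched in this count.

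The crosslinked-only regions at or inside genes were spread over 660 genes or groups of neighbouring genes, 589 of them with 1 region. Nfix, a transcription factor of the nuclear factor I family that acts in fetal muscle, held 11, the most of any gene. The gene lies in the stretch of chromosome 8 from 84 to 85 Mb, which held 51 crosslinked-only regions in all. The widest of them, chr8:84729682-84732899, was 2274 bp wide in fresh and 3037 bp in frozen crosslinked cells, at a fold enrichment of 2.71 and 2.92. Regions of all lists also lay at the gene, the widest of them spanning 18817 bp. Of the 11 regions, each had a peak in cycling replicate 2 and none in cycling replicates 1 and 3.

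Among crosslinked-only regions within 1 kb of a boundary of a protein-coding gene, those with the highest rank lay at Extl1, Kbtbd7, Fcgr4, Per1, Pdgfb, Usp2, A630095N17Rik and Sh2d6. At Extl1, a glycosyltransferase of the exostosin family, the region chr4:134371572-134372637 had a fold enrichment of 3.62 in fresh and 3.65 in frozen crosslinked cells. At Kbtbd7, an adaptor of a cullin ubiquitin ligase, the values were 3.45 and 3.6. Both covered a start, and both had peaks in all 3 cycling lists. Fcgr4, an Fc receptor for IgG, had 4.27 and 3.57. Per1, a repressor of the circadian clock, had 3.23 and 3.39 in a region that also holds tRNA genes. Pdgfb, a platelet-derived growth factor, had 3.17 and 3.15, and Usp2, a deubiquitinase, had 3.16 and 3.35. All of these regions but that at Usp2 had a peak in each cycling list, and that at Usp2 in 2 of 3. By the smaller of their widths in the crosslinked lists, the widest crosslinked-only regions lay inside Fmnl3 (a formin), Nfix, Tab1 (a partner of the kinase TAK1) and Kctd10 (a cullin adaptor), and outside genes at chr8:84808482-84811665.

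The native-only regions within 1 kb of a boundary lay at Tagap1, Neto2 with Mir8109, Tmem182, Ripk3, Vit, Pou3f1, Doc2b, Mir1895, Gm40614 and Gm46614. Those inside genes included regions in Etl4, Gstm1 and Lsp1, and 2 lay outside genes on chromosomes 1 and 11. At Tagap1 the fold enrichment was 3.30 in fresh and 9.71 in frozen native cells, the highest of the set. At Ripk3, a kinase of necroptosis, it was 2.85 and 3.12. At Pou3f1, a POU transcription factor, it was 2.70 and 2.99. A crosslinked peak lay close by in some cases, 80 bp away at Neto2, 126 bp at Tmem182, 289 bp at Gstm1 and 547 bp at Lsp1. By distance, 12 of the 16 native-only regions had no crosslinked peak within 1 kb. Of the 984 crosslinked-only regions, 891 had no native peak within 1 kb. Tmem182 and Lsp1 held regions of both kinds. At Tmem182, a membrane protein of muscle, the crosslinked-only region chr1:40805616-40806373 and the native-only region chr1:40806500-40807994 were neighbours, and neither had a peak in any cycling list.

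The crosslinked-only regions were unevenly spread over chromosomes. Chromosome 15 held 147 of them (14.9%), chromosome 8 held 142 (14.4%) and chromosome 11 held 115 (11.7%). Together these chromosomes, chosen after their values were seen, held 404 crosslinked-only regions (41.1%, exact 95% interval 38 to 44.2%), compared with 18.1% of regions in all lists. Regions of all lists are a low baseline, since the same chromosomes held 24.9% of all fresh crosslinked and 24.3% of all frozen crosslinked peaks. The X chromosome held 3 (0.305%), against 3.05% of regions in all lists. Per 100 regions of all lists there were 26.5 crosslinked-only regions on chromosome 15, 21.3 on chromosome 8 and 0.802 on the X chromosome. By this rate chromosome 11, at 11.6, lay below chromosome 19 at 12.2 and close to chromosome 10 at 10.9, so that it ranks with the other two by number of regions and not by rate.

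**Figure D3:**
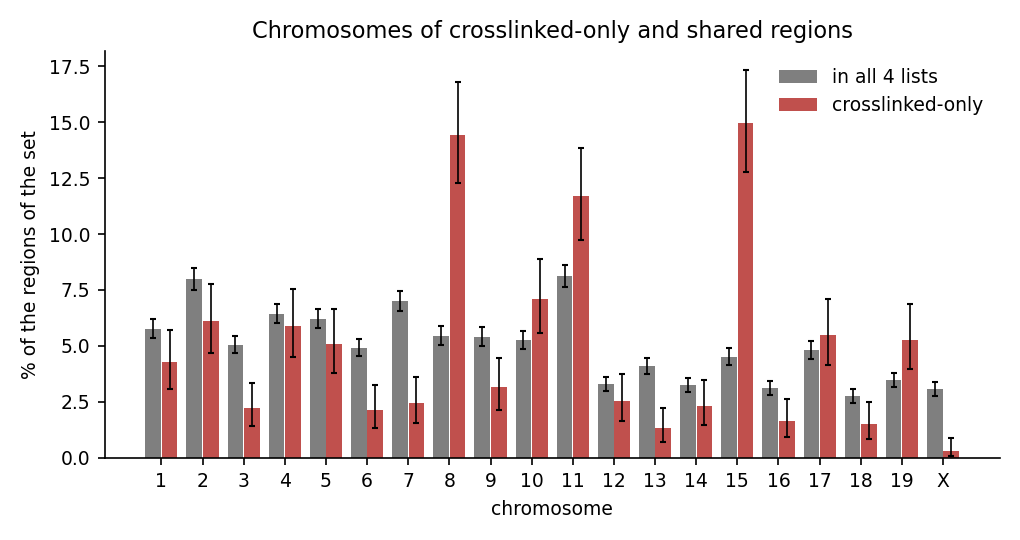
Percent of the regions of each set on each of chromosomes 1 to 19 and X (vertical axis), for regions in all 4 lists and crosslinked-only regions, with bars for exact 95% binomial intervals. Of these, chromosomes 15, 8 and 11 stood highest for crosslinked-only regions (14.9%, 14.4% and 11.7%), and the X chromosome lowest (0.305%).

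Within chromosome 8 the window from 80 to 90 Mb held 89 crosslinked-only regions (9.04%) and 87 regions of all lists (0.710%), and the window from 84 to 85 Mb, that of Nfix, held more of the former than any other of 1 Mb. The same chromosomes stood out among regions found in a single list, at 45.0% for fresh crosslinked, 40.8% for frozen crosslinked and 39.5% for fresh native cells, but 12.1% for frozen native cells. Among other sets missing from some lists, their share was 53.8% of the 39 fresh-only regions and 12.7% of the 387 frozen-only regions. It was 36.4% of the 66 regions missing from the frozen native list alone, and 20.02% of those missing from fresh native alone. Of the regions missing from fresh crosslinked or frozen crosslinked alone it was 9.52% and 8%. These chromosomes held 39.5% and 38.8% of the crosslinked peaks with q over 0.01, against 20.1% and 19.8% of those with smaller q. In cycling cells they held 27.6% of the peaks of replicate 2, whose list was the longest with 40999 peaks, and 17.8% and 18.3% of those of replicates 1 and 3. Without the frozen native library, the share of crosslinked-only regions on these chromosomes was 27.3%, and with the same number of peaks from each list it was 30.5%. Why the chromosomes differ was not tested.

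Regions found in all 4 lists were wider in crosslinked cells, mainly among fresh cells. The summed peak width of a region had a median of 2140 bp in fresh crosslinked and 1679 bp in fresh native cells. It was 2277.5 bp in frozen crosslinked and 2153 bp in frozen native cells. The median log2 ratio of width, crosslinked over native, was 0.34 in fresh and 0.05 in frozen cells, a mean of 0.20 ± 0.21 (SD, n = 2). Of the 12250 regions, 92.3% were wider in fresh crosslinked cells and 61.8% in frozen crosslinked cells. In both handlings 7040 (57.5%) were wider and 404 (3.30%) narrower. Without the fresh native library the median ratio was 0.02, and without the frozen native library it was 0.38. The native lists themselves differed by 0.36 between frozen and fresh cells and the crosslinked lists by 0.07.

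**Figure D4:**
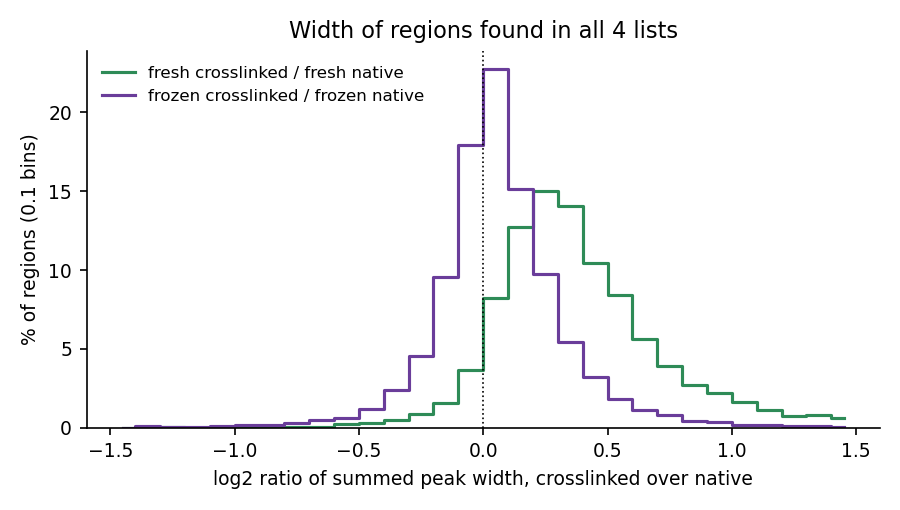
Percent of the 12250 regions of all 4 lists (vertical axis, bins of 0.1) by the log2 ratio of summed peak width, crosslinked over native (horizontal axis), as 1 line each for fresh and frozen cells. The median of the fresh line is 0.34 and that of the frozen line 0.05.

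The difference was on both sides of the start. In 6908 regions with starts on 1 strand, peaks reached a median of 620 bp upstream and 1471 bp downstream in fresh crosslinked cells, and 436 and 1207 bp in fresh native cells. In frozen cells the reach was 653 and 1556 bp with crosslinking and 595.5 and 1488 bp without. The median gain with crosslinking was 169 bp upstream and 247 bp downstream in fresh cells, and 29 and 32 bp in frozen cells. Among fresh cells the narrowest 2450 regions had a log2 ratio of 0.60 and the widest 2450 had 0.27, while among frozen cells the 5 width classes of that size lay between 0.03 and 0.06. On the chromosomes named above the median ratio was 0.39 in fresh and 0.11 in frozen cells, against 0.34 and 0.04 elsewhere, and in the window of chromosome 8 from 80 to 90 Mb it was 0.60 and 0.34.

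Among regions at least 1 kb wide in each list, those with the largest gain in both handlings lay at Farsa, Sbf1, Apc2 with Rps15, Grk2 and Pdlim4. At Farsa, a subunit of phenylalanyl-tRNA synthetase, the width was 2802 bp in fresh crosslinked, 3139 bp in frozen crosslinked, 1176 bp in fresh native and 1434 bp in frozen native cells. Both crosslinked widths exceeded both native ones, with log2 ratios of 1.25 and 1.13. At Pdlim4, a PDZ and LIM domain protein, the widths were 5531, 7852, 3134 and 4530 bp in the same order. The regions with the largest loss lay at Tbc1d12, Dkk2, Bdkrb2, Sbf2 and Zfp704. At Dkk2, a Wnt antagonist, the widths were 1729, 2116, 2247 and 2985 bp, with log2 ratios of -0.38 and -0.50. These genes were picked for their ratios, which are given without a test.

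The myogenic genes fixed for every list showed no common direction. At Myod1, the regulator that commits cells to muscle, the widths were 3387 bp in fresh crosslinked, 4239 bp in frozen crosslinked, 3498 bp in fresh native and 3916 bp in frozen native cells. At Myog they were 3433, 2773, 1491 and 3127 bp, so that the log2 ratio was 1.20 in fresh and -0.17 in frozen cells. At Ckm, muscle creatine kinase, they were 1955, 423, 317 and 1085 bp, with ratios of 2.62 and -1.36. At Acta1 they were 3598, 6353, 2158 and 4894 bp. Myog, Acta1 and Ckm had no peak in any cycling list, whereas Myod1 had 1 in all 3. At Psme3 the widths were 2996, 2947, 1843 and 2800 bp.

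The gene lists showed where the sets touched known groups. Of 21900 protein-coding genes, 126 (0.575%) had a crosslinked-only region within 1 kb of a boundary, 7 (0.032%) a native-only region and 10876 (49.7%) a region of all lists. All 42 cell cycle genes and all 48 cytosolic ribosomal protein genes had a region of all lists, as did 41 of 42 respiratory chain genes. Among myoblast and muscle markers 16 of 18 had one and 0 a crosslinked-only region, and among integrin and focal adhesion genes 31 of 37 and 0. Of 50 sarcomere genes 32 had a region of all lists, and Tnni2, a fast-muscle troponin, had a crosslinked-only region, shared with Syt8, and none of all lists. A further region beside it, chr7:142442252-142442640, had a peak in both frozen lists, 389 bp wide with crosslinking and 183 bp without. Of 39 Hox genes 16 had a region of all lists, and Hoxc5, Hoxc12 and Hoxc13 had crosslinked-only regions, Hoxc5 without one of all lists. The other listed genes with a crosslinked-only region within 1 kb of a boundary were Rpl8, Cd68 and Sp7, the last a regulator of bone formation without a region of all lists. A region of all lists was found at 12 of 75 developmental regulators of other lineages, 6 of 18 neuron markers, 3 of 24 blood and immune markers, 1 of 22 liver, gut and epithelial markers, 6 of 18 fat, bone and cartilage markers and 5 of 18 endothelial and smooth muscle markers. None of the 13 lists had a native-only region. The median log2 width ratio in fresh cells was 0.44 for the muscle markers, 0.35 for the sarcomere and ribosomal protein genes and 0.26 for the cell cycle genes, beside 0.32 for all protein-coding genes. In frozen cells the same lists lay between 0.07 and 0.10, beside 0.05. Some lists lay below that background in frozen cells, with 0.27 in fresh and 0.04 in frozen cells for the Hox genes, 0.09 and -0.01 for the developmental regulators, and 0.40 and -0.11 for the neuron markers, of which only 7 regions were measured.

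The share of crosslinked-only regions listed in cycling cells differed between replicates. These cells had been frozen without crosslinking and were not used to choose the regions. A cycling H3K4me3 peak overlapped 42.1% of the crosslinked-only regions in replicate 1, 86.3% in replicate 2 and 57% in replicate 3. The mean was 61.8% ± 22.5 (SD, n = 3). For native-only regions the same replicates gave 81.3%, 75% and 75%, with a mean of 77.1% ± 3.61 (SD, n = 3). The difference of -15.3 ± 25.3 percentage points (SD, n = 3) did not exceed the spread between replicates, with p = 0.5 by an exact two-sided permutation of signs. In replicate 2, whose list was the longest, the share was higher for the crosslinked-only regions. The difference was -28.6 without replicate 2, -13.9 without replicate 3 and -3.35 without replicate 1. Regions of all lists were found in 98.9% ± 0.280 (SD, n = 3), more than crosslinked-only regions in 3 of 3 replicates. The exact permutation of signs gave p = 0.25 for this difference, and 3 replicates cannot give less. For regions missing from the fresh native list alone the share was 85.7%, 92.8% and 90.5% in replicates 1, 2 and 3. For frozen-only regions it was 72.6%, 81.4% and 78.0%. On chromosomes 15, 8 and 11 the crosslinked-only regions were found in 29.7%, 87.1% and 45.0% of cases in replicates 1, 2 and 3, and elsewhere in 50.7%, 85.7% and 65.3%.

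**Figure D5:**
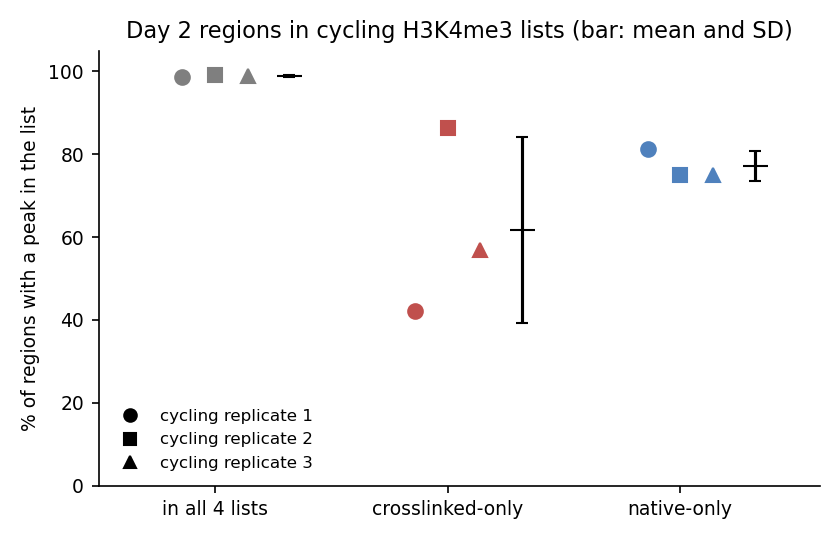
Percent of regions that overlap a peak in each cycling H3K4me3 list (vertical axis), for regions in all 4 day 2 lists, crosslinked-only and native-only regions, with symbols for replicates 1, 2 and 3 and a bar for the mean and SD. Crosslinked-only regions ranged from 42.1% in replicate 1 to 86.3% in replicate 2, while native-only regions lay between 75% and 81.3%.

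Of the 984 crosslinked-only regions, 383 (38.9%) were in all 3 cycling lists and 117 (11.9%) in none. Of the native-only regions 62.5% were in all 3 and 12.5% in none, and of the regions of all lists 98.4% and 0.718%. The 117 crosslinked-only regions in no cycling list lay within 1 kb of a boundary in 24 cases, inside genes in 71 and outside genes in 22. The 5 genes described next were picked from these regions after their values were seen, for their known roles in skeletal muscle, and no excess of such genes was tested. Most of the 117 regions lay elsewhere, and of the fixed lists none of the 18 muscle markers and 1 of the 50 sarcomere genes had a crosslinked-only region near a boundary. Mb, which encodes myoglobin, held 2 such regions, with a fold enrichment of 3.02 and 2.6 in fresh and 2.63 and 2.89 in frozen crosslinked cells. The other crosslinked-only region in Mb had a peak in cycling replicate 2. A region of all lists near the gene, at chr15:77035968-77038009, was 2042 bp wide in fresh crosslinked, 1635 bp in frozen crosslinked, 169 bp in fresh native and 1277 bp in frozen native cells. A region at both Cox6a2, a muscle form of a cytochrome c oxidase subunit, and Itgad, a leukocyte integrin, had values of 2.68 in fresh and 2.76 in frozen crosslinked cells, and the nearest region of all lists was 30732 bp away. The region at Tnni2 and its neighbour Syt8, a synaptotagmin, had values of 3.00 and 2.80. Tmem38a, a cation channel of the sarcoplasmic reticulum, had 3.09 and 3.10, with a region of all lists 13651 bp away. Ankrd2, an ankyrin repeat protein of the sarcomere, had 2.70 and 2.59. All of these fold enrichments lay between 2.59 and 3.10.

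PSME3, the nuclear proteasome activator studied in the series, was rarely listed at these regions. The pooled cycling PSME3 list of the authors overlapped 118 crosslinked-only regions (12%) and 32.4% of the regions of all lists, and 0 of the 16 native-only regions. It overlapped 16.1% of the regions missing from the fresh native list alone and 10.3% of the frozen-only regions. In the day 2 PSME3 lists, which held 18 to 186 peaks, no peak overlapped a crosslinked-only or native-only region. These short lists overlapped between 0.0327% and 1.39% of the regions of all lists, so that little can be read from the absence.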

How the data were processed

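H3K4me3 peak lists of 4 day 2 preparations were compared, with the cycling H3K4me3 and PSME3 lists as libraries that played no part in choosing regions. Per the labels' processing notes, the authors used Trim Galore for trimming, Bowtie2 for alignment to mm10 and MACS2 for peak calling. Versions, options and the control library are not given in the sources used here. The deposited lists give, for each peak, a score, a fold enrichment (a ratio to the local background), and the -log10 of the p-value and q-value as the authors deposited them. No q-value in the lists exceeds 0.1. The enrichment was used only as the authors' value within a list, and depth is unknown. The 7 IgG libraries were not analysed here.

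Lists were handled with pandas 2.3.3 and numpy 2.4.6 under Python 3.11.15, tests came from scipy 1.17.1 and figures from matplotlib 3.10.9. The functions for merging, overlap and tests were tested on simulated data. Summed peak widths were used for shared regions. Genes came from 49980 RefSeq genes of GRCm38.p6 without strand, hence the distance of 1 kb to either boundary, and starts from 32851 promoter windows of 27025 genes, which hold no window for Myod1. Single values were compared by exact permutation. The members and gene lists were chosen with earlier results of these data known. Genes were named by rank of the lower -log10 q percentile, by width, by width ratio or from a fixed list. Genes named for their absence from cycling lists, the neighbours of Nfix and the native-only regions outside the rule were added after their values were seen. One item is not reported here.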

Additional observations from a re-analysis of the deposited data

Results flagged for a closer look

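At regions found in all 4 lists, the authors' fold enrichment moved in opposite directions in the 2 handlings. Its median log2 ratio, crosslinked over native, was 0.35 in fresh cells (8.18 against 6.38, higher in 93.5% of regions) and -0.54 in frozen cells (10.1 against 15, higher in 2.87% of regions). The median difference of -log10 q was 11.4 in fresh and -14.6 in frozen cells. The share of peaks of at least 5 kb was higher by 1.09 percentage points with crosslinking in fresh cells, and in frozen cells the difference was -0.51. With 1 library a preparation, none of these differences between handlings was tested, and the depth of the libraries is unknown.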

How the results depend on the processing

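More regions were crosslinked-only than native-only under all 15 alternatives set for the sets, but the counts moved. Crosslinked-only regions numbered 377 with q of at most 0.01, 190 with the same number of peaks from each list, 210 with q of at most 0.01 for the holding side only, 7475 in the fresh lists alone and 5548 in the frozen lists alone, and from 1052 to 5447 with each library left out. Native-only regions numbered 9 with q of at most 0.05, 10 with q of at most 0.01, 76 with the same number of peaks from each list, 3 with q of at most 0.01 for the holding side only, 34 for peaks of the fresh lists, 58 with 50% overlap, 1559 in the fresh and 840 in the frozen lists alone, and from 42 to 1421 with each library left out. The share on chromosomes 15, 8 and 11, with alternatives added after seeing the data, was 31.8% with q of at most 0.01, 30.5% with the same number of peaks, 35.2% with q of at most 0.01 for the holding side only, 35.1% with 50% overlap and 36.4% in the fresh lists alone, and from 27.3 to 43.6% with each library left out. Without those chromosomes, added likewise, 580 crosslinked-only regions were left.

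The difference in median peak width was 53.5 bp with q of at most 0.01 and 257 bp with the same number of peaks, and from -442 to -81.0 bp with each library left out. The difference in the share of peaks of at least 5 kb ranged from -0.80 to 1.37 percentage points with each library left out, the lowest being without fresh native. Near a boundary lay 36.4% of crosslinked-only regions at 3 kb, 11.8% with protein-coding genes, 16.2% by the centre and 6.81% by transcription starts, against 86.7%, 77.2%, 66.1% and 71.3% of regions of all lists. The width ratio at shared regions ranged from 0.02 to 0.38 with each library left out. The causes of these changes were not tested. The number of peaks and the covered bases kept their direction under every alternative run, and so did the difference between the sets in cycling lists. Equal list lengths leave no difference in the number of peaks to compute. Across replicates, no paired analysis was possible because the day 2 libraries carry no replicate numbers. Handling does pair crosslinked with native cells, 1 pair fresh and 1 pair frozen. Crosslinked minus native, the difference was 5831 peaks in fresh and 4814 in frozen cells, and 8.87 and 3.37 Mb in covered bases. Median width differed by -135 and -388 bp. The share of peaks of at least 5 kb differed in sign, by 1.09 and -0.51 percentage points. The differences within these 2 pairs are given as values with no test. The depth of the libraries, which sets how weak a peak can be listed, is unknown.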
